A study of Arabidopsis thaliana with 6 samples.

Results

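The small RNA (sRNA) of wild-type rosette leaves was described from 4 libraries of *Arabidopsis thaliana* Col-0, the reference accession, each made from the leaves of a single plant at bolting. The plants were grown on peat mix at 22 °C with days of 12 h. They served as isogenic wild-type controls in a study of *msh1* memory, a heritable change of growth, and according to its methods the controls came from negative transformation events. The study's pedigree figure names rosette leaf tissue, while its methods describe freezing whole plants at early bolting. The series also held 2 memory libraries, which entered no total, filter or comparison here. The members were all sRNA clusters, that is, intervals of the genome where sRNA reads gather, with at least 10 counts in every one of the 4 wild-type libraries. These were 12308 of the 17131 clusters of the series. A pair of them, Cluster_9265 and Cluster_4135, lay at ribosomal DNA (rDNA) and was left out of the totals, so that 12306 clusters are described. Values are counts per 1000000 counts (CPM) of the column total without this pair, and shares are percentages of the CPM held by the described clusters.

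Plant sRNAs are cut from double-stranded or folded RNA by Dicer-like enzymes and guide Argonaute proteins to matching RNA or DNA. MicroRNAs (miRNAs) come from hairpin transcripts of their own genes and repress messenger RNAs, while trans-acting siRNAs come from *TAS* transcripts that a miRNA has cut. The siRNAs of transposons and repeats guide DNA methylation, and fragments of tRNA and rRNA are also sequenced with sRNA.

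The sequences behind the most abundant clusters are shown first, because a few short RNA genes held a large part of the counts. Sequences and positions are from the RefSeq genome and annotation of TAIR10.1, and the positions match those of the count tables (TAIR10, counted from 1). The mature miRNAs of the 5 highest miRNA clusters and of *MIR398b* follow, with the seed, bases 2 to 8, in capitals. The 3 miR398 genes share 1 seed, and so do the 2 miR159 genes.
miR398a-3p: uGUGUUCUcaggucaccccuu
miR398b-3p: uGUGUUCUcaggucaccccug
miR398c-3p: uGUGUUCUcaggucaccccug
miR159a: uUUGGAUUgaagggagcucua
miR159b-3p: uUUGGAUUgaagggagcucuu
miR167a-5p: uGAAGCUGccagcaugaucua

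The tRNA genes under the 3 highest tRNA clusters are given with the anticodon in capitals, since tRNA genes held the largest share of CPM of the annotation classes. The glutamate tRNA with anticodon CTC is AT2G38030 (chr2:15916817-15916889, plus strand), that with TTC is AT3G05525 (chr3:1601338-1601409, minus strand), and the threonine tRNA is AT2G03660 (chr2:1113984-1114055, minus strand).
AT2G38030: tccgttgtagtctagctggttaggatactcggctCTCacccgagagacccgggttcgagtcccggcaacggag
AT3G05525: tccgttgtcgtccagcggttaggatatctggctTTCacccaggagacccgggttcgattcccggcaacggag
AT2G03660: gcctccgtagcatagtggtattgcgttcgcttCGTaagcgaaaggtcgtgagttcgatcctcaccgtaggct

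The libraries held 18134284, 11358287, 10151442 and 10564027 counts in plants 1 to 4. The rDNA pair took 36.1, 30.7, 34.5 and 36.9% of them (mean 34.5 ± 2.72%, SD, n = 4). Without the pair, the totals were 11591677, 7867854, 6649135 and 6670017 counts. A floor of 3 counts corresponded to 0.259 to 0.451 CPM, and this floor covers counting error only. The described clusters held 94.9, 97.5, 97.6 and 97.3% of those totals. Plant 1 was the deepest library and stood apart from the other 3 in several of the values below. Leaf-abundant sRNA genes were looked up beside the tissue label, which cannot tell rosette leaves from whole plants. *MIR159a*, *MIR161*, *MIR168a*, *MIR166a*, *MIR158a*, *TAS1C* and *TAS2* lay at clusters of 1510 to 12166 CPM on average, whereas *MIR172a* had 4.08 CPM and *MIR156a* had no cluster in the tables used here. The families of the last 2 were higher, with 1850 ± 461 CPM for miR172, mostly from *MIR172b*, and 737 ± 121 CPM for miR156, mostly from *MIR156b* and *MIR156d*. Of the pollen-abundant pair, *MIR845a* had 7.96 ± 3.50 CPM and *MIR845b* had no cluster.

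Genes for tRNA, miRNA and *TAS* RNA covered few clusters and held much of the CPM. A cluster took the first class of a fixed order of which it shared at least 1 base, so a cluster of several genes was counted once. The 236 clusters at tRNA genes held 28.5, 22.8, 23.3 and 21.8% of the CPM of plants 1 to 4 (24.1 ± 2.99%, SD, n = 4). The 206 miRNA clusters held 13.6, 14.1, 14.5 and 17.1% (14.8 ± 1.55%). The 4 clusters of the *TAS* class held 3.94, 6.35, 5.85 and 6.09% (5.56 ± 1.10%). Plant 1 was highest for tRNA and lowest for miRNA and *TAS*, and plant 4 was highest for miRNA.

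Most clusters lay elsewhere. The 4520 clusters at protein-coding genes held 21.6, 17.9, 18.4 and 17.9% of CPM in plants 1 to 4 (19.0 ± 1.78%), and the 4103 intergenic clusters held 18.2 ± 1.14%. The 2242 clusters at pseudogenes, a class that in this annotation includes transposon genes, held 10.2 ± 1.05%, and the 861 clusters at other noncoding RNAs held 7.63 ± 0.803%. Clusters at snRNA or snoRNA genes, 134 in number, held 0.568 ± 0.0427%. The classes depend on the overlap that is asked for: with a class set only where it covered at least 50% of the cluster, tRNA genes held 0.402% and intergenic clusters 60.4%. Where in a cluster the reads lay is not part of the tables.

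**Figure D1:**
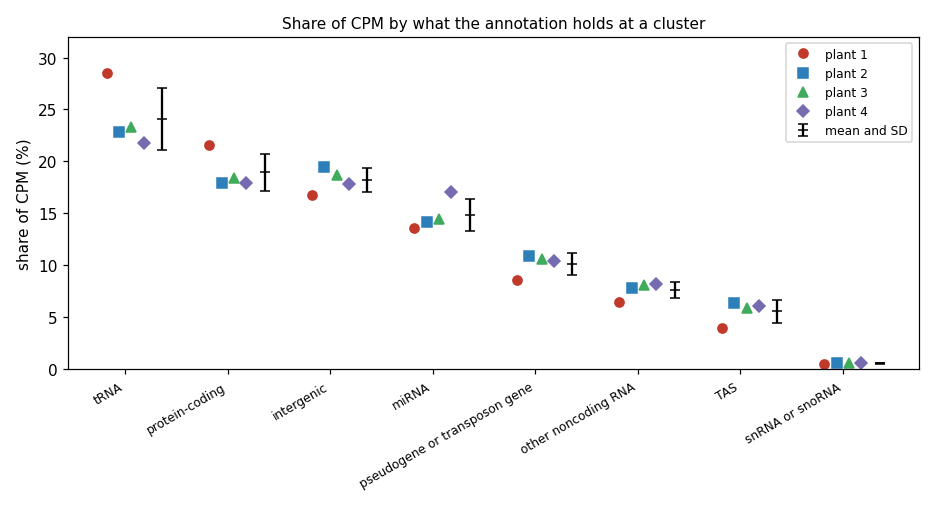
Share of CPM (%) by what the annotation holds at a cluster, with 1 point per wild-type plant and the mean and SD over 4 plants in black. The tRNA class held 21.8 to 28.5% of CPM and was the highest class in all 4 plants.

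Within the tRNA class, glycine tRNAs were the most abundant isotype. Their 22 clusters summed to 69565, 97682, 63048 and 74410 CPM in plants 1 to 4. The 11 glutamate clusters summed to 92106, 37102, 47720 and 44224 CPM, so that glutamate exceeded glycine in plant 1 alone. The 11 threonine clusters summed to 33880 ± 2476 CPM and the 24 arginine clusters to 23703 ± 9958 CPM. Of the 625 annotated nuclear tRNA genes, 252 lay in a described cluster.

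The cluster with the largest difference between plants among the 15 highest was a glutamate tRNA. Cluster_6895 (chr2:15916719-15916973, 255 bases), at AT2G38030, had 55071, 5964, 13124 and 7659 CPM. Plant 1 was above the other 3, and the highest plant was 9.23 times the lowest. Cluster_7376 (chr3:1600737-1601522, 786 bases), at the other glutamate tRNA shown above, had 18568, 24367, 26881 and 28506 CPM, with plant 1 the lowest. With TMM factors, another scaling of the libraries, it ranged from 21999 to 26758 CPM and plant 1 was not the lowest. The 2 tRNAs differ in sequence, and the tables do not show how reads that match several tRNA genes were placed.

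MicroRNAs were led by the miR398 family, which in plants targets copper superoxide dismutases. Cluster_4365 (chr2:1040900-1041083), 184 bases around *MIR398a*, had 27755, 23092, 21324 and 32866 CPM (26259 ± 5173, SD, n = 4). *MIR398c*, at Cluster_13845, had 18754, 9420, 5341 and 11978 CPM, and *MIR398b*, at Cluster_13844, had 9689, 5570, 3174 and 3667 CPM. Both were highest in plant 1 and lowest in plant 3. Their mature miRNAs are identical over the 21 bases shown, so a read of either can be placed at both genes.

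The miR159 genes, which repress MYB factors of the GAMYB type, were next as a family. *MIR159a*, at Cluster_3878, had 9134, 11573, 11433 and 16523 CPM, and *MIR159b*, at Cluster_615, had 10164, 10491, 10157 and 14842 CPM. Plant 4 was the highest for both. *MIR167a*, whose miRNA targets auxin response factors, had 9735, 14721, 16886 and 16724 CPM at Cluster_8016, and plant 1 was the lowest. *MIR168a*, which targets *AGO1*, had 6992 ± 2007 CPM, and *MIR161*, whose targets include pentatricopeptide repeat (PPR) genes, had 6474 ± 2727 CPM. *MIR171c* and *MIR396a*, whose miRNAs target scarecrow-like and growth-regulating factors, completed the 10 highest of the listed genes with 3806 ± 452 and 3635 ± 1091 CPM.

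Of 105 listed miRNA genes, 76 lay at a described cluster, 18 at a cluster under 10 counts in a library and 11 at none. The described ones belonged to 34 of the 35 families found in the annotation. By family, the summed CPM was 43157 ± 11573 for miR398, 24828 ± 5717 for miR159, 18242 ± 4814 for miR167 and 7096 ± 2028 for miR168 (SD, n = 4). At the low end, miR827 had 13.3 ± 5.15 CPM and miR394 had 19.3 ± 6.04 CPM. The 10 highest clusters held 71.2% of the CPM of all miRNA clusters.

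*TAS1A*, a source of trans-acting siRNAs set off by miR173, gave the highest cluster by mean CPM. Cluster_6450 (chr2:11720754-11722468, 1715 bases) had 25006, 44228, 36572 and 41218 CPM (36756 ± 8443). *TAS1C*, at Cluster_6945, had 7885, 11149, 11331 and 11451 CPM. *TAS2*, whose siRNAs target PPR genes, had 6113 ± 1845 CPM, and *TAS1B* had 2048 ± 376 CPM. *TAS3*, which targets auxin response factors after cutting by miR390, had 597 ± 62.8 CPM. Plant 1 was the lowest for all 5 with this scaling. With TMM factors it stayed the lowest for *TAS1A* and *TAS2*, but not for *TAS1B*, *TAS1C* or *TAS3*. *TAS1A* then ranged from 31969 to 39929 CPM over plants and *TAS1C* from 10066 to 10749 CPM. *TAS4* and the locus named *TASIR-ARF* had no cluster in the tables used here, and *TAS3b* had 3 to 8 counts per library.

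The *RPF* genes encode PPR proteins that act on mitochondrial transcripts, and PPR genes of this group are known sources of secondary siRNAs. *RPF6* (AT1G63130) had 572, 1200, 1052 and 871 CPM at Cluster_3402. *RPF2* had 190 ± 77.8 CPM, *RPF3* 78.7 ± 32.2 CPM and *RPF1* 2.74 ± 1.34 CPM. For *RPF5* and *RPF7* no cluster was found. In every plant the order was *RPF6*, *RPF2*, *RPF3* and *RPF1*, from high to low, although the ranges of *RPF2* and *RPF3* over plants overlapped.

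By chromosome, the CPM did not follow length. Chromosome 2, with 16.5% of the sequence, held 30.6, 27.6, 26.6 and 27.9% of CPM in plants 1 to 4 (28.2 ± 1.71%). Chromosome 4, with 15.6% of the sequence, held 10.1 ± 0.932%. Chromosomes 1, 3 and 5 held 24.9 ± 0.629, 19.4 ± 1.57 and 17.5 ± 1.29%, against 25.5, 19.7 and 22.6% of the sequence. Without the clusters at tRNA, snRNA, snoRNA, miRNA and *TAS* genes, chromosome 2 held 18.4 ± 1.19% and chromosome 4 held 13.9 ± 1.10%.

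The highest bins were few and each was led by RNA genes named above. Chromosomes were cut into 121 bins of 1 Mb by cluster start. The bin chr2:1000001-2000000 had 67947, 61035, 59480 and 73506 CPM per Mb, of which *MIR398a* gave 40.1%. The bin chr2:11000001-12000000 had 44386 ± 6988 CPM per Mb, and *TAS1A* gave 82.8% of it. The bin chr3:1000001-2000000 had 38533 ± 7291 CPM per Mb, and Cluster_7376 gave 63.8%. The lowest bins, chr4:17000001-18000000 and chr4:13000001-14000000, had 815 ± 37.5 and 1565 ± 91.7 CPM per Mb, and chr1:15000001-16000000, a gene-poor bin, had 1618 ± 93.3.

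**Figure D2:**
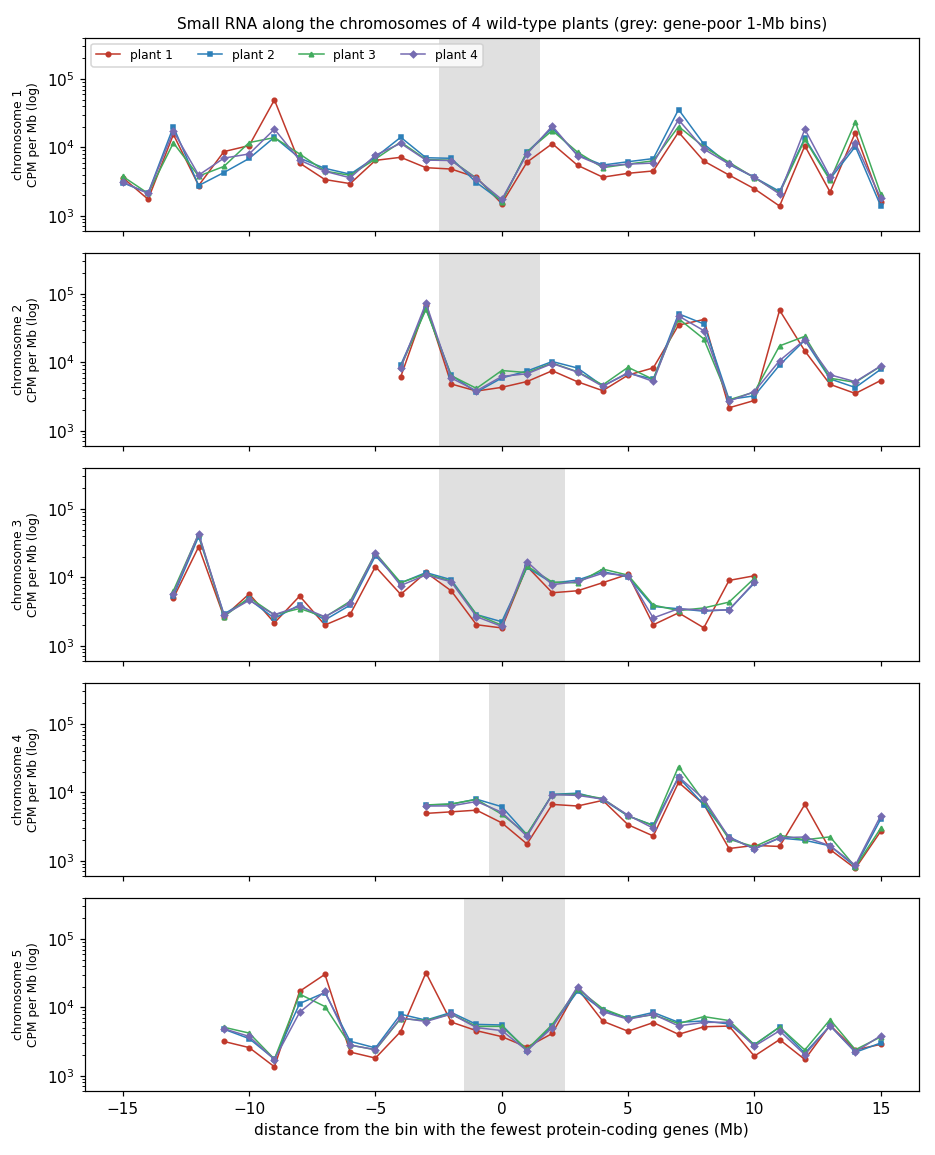
CPM per Mb (log axis) of the described clusters in 1-Mb bins along the 5 chromosomes, 1 line per wild-type plant, against the distance in Mb from the bin with the fewest protein-coding genes, with gene-poor bins in grey. The 4 lines largely overlie each other, and plant 1 has single bins well above the other plants on several chromosomes.

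Bins with under 132.5 protein-coding genes per Mb, 50% of the median of 265, were taken as gene-poor. They were 20 bins in 1 unbroken stretch per chromosome, and held 16.8% of the sequence. Clusters lay more densely there, with 138 per Mb in gene-poor and 96.3 per Mb in gene-rich bins. They covered 57.1% of the gene-poor and 14.9% of the gene-rich sequence. Over the 121 bins, coverage and gene number had a Spearman correlation of -0.85, as a description of bins that share libraries and lie beside each other. For CPM per Mb and gene number it was -0.26, and -0.58 without tRNA, snRNA, snoRNA, miRNA and *TAS* clusters. By rank, bins with fewer genes thus had somewhat more CPM per Mb, unlike the summed density of gene-poor bins given below.

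Gene-poor clusters were wide and held little CPM per kb. The 2756 gene-poor clusters had a median width of 2695 bases, against 1085 bases for the 9550 gene-rich ones. Their median was 4.43 CPM per kb, against 14.6 CPM per kb. A median of 23.0% of their 24-base words had another copy in the nuclear genome, against 5.02%, and their median GC content was 35.6%, against 33.3%. Pseudogenes and transposon genes made up 49.2% of the gene-poor clusters and 9.29% of the gene-rich ones, and held 34.0 ± 0.460% of gene-poor CPM and 7.12 ± 0.813% of gene-rich CPM.

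In total CPM, gene-poor bins held 9.68, 12.0, 12.0 and 11.7% (11.3 ± 1.12%, SD, n = 4). Their density was 4592, 5846, 5862 and 5697 CPM per Mb in plants 1 to 4 (5499 ± 609), against 8657 ± 6.90 CPM per Mb in gene-rich bins, a ratio of 0.531, 0.675, 0.677 and 0.658. The density was lower in gene-poor bins in 4 of 4 plants (exact two-sided sign-flip permutation test over plants, p = 0.125, the smallest that 4 plants allow). The direction turned with the choice of clusters and bins. Without tRNA, snRNA, snoRNA, miRNA and *TAS* clusters, a choice made after seeing the data, the ratio was 1.01, 1.25, 1.23 and 1.24 (p = 0.125, exact). With the 25% of bins of fewest genes taken as gene-poor, the mean ratio was 1.11 (p = 0.25, exact). It ranged from 0.959 to 1.20 over plants, so that the direction did not turn in every plant.

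Among clusters outside those RNA genes, the highest in gene-poor bins was Cluster_9262 (chr3:14192780-14193418, 639 bases), with 12058, 10758, 11575 and 14081 CPM. All of its 24-base words also occur in the rDNA, and it held 80.8% of the CPM of its bin. Without it, gene-poor bins held 10.2% of CPM. Next were Cluster_11227 (chr4:3061050-3076134), at pseudogenes, with 2549 ± 643 CPM, and Cluster_1912 (chr1:14190064-14197388) with 1976 ± 428 CPM. Cluster_14832 and Cluster_11223 were intergenic, with 1538 ± 356 and 1149 ± 356 CPM, and 92.0 and 93.3% of their 24-base words were repeated in the genome.

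In gene-rich bins, Cluster_15512 (chr5:14252944-14254892), which overlaps AT5G36210 and the cytochrome P450 gene *CYP81D1*, had 12738, 9254, 11380.0 and 12805 CPM. Coding sequence made up 66.4% of it. Of its sequence words, of the length used above, 1.14% also occur in the rDNA, and the same percent is repeated in the genome. Where in this cluster its reads lay was not tested, so reads of rDNA and of these genes cannot be told apart here. Cluster_7406 (chr3:1961653-1970873), at noncoding RNA genes and a pseudogene, had 5877, 10359, 12045 and 11541 CPM. The other 3 of the 5 highest were high in plant 1 only and are described with that plant.

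Cluster width and CPM per kb ran in opposite directions. The 303 clusters of 10000 bases and over held 2.74 ± 0.304% of CPM, and the 450 clusters under 300 bases held 21.4, 8.73, 9.70 and 9.13% in plants 1 to 4 (12.2 ± 6.14%). The classes of 3000 to 9999, 1000 to 2999 and 300 to 999 bases held 14.5 ± 0.644, 37.6 ± 2.59 and 33.0 ± 2.91%. Density was 5.89 ± 0.722 CPM per kb in the widest class, then 14.4 ± 0.790, 40.8 ± 3.29 and 107 ± 10.8, and 2253, 943, 1048 and 983 CPM per kb (1307 ± 632) in the narrowest. The widest class was lower than the narrowest in 4 of 4 plants (mean log2 difference -7.70 ± 0.78, exact sign-flip permutation test, p = 0.125). Width divides the CPM per kb, and the filter of 10 counts sets a higher least density for narrow clusters. The direction was therefore partly fixed in advance, and the test cannot set this apart. The median CPM of a cluster ran the other way, with 9.04 under 300 bases and 54.8 at 10000 bases and over. The size of the density difference varied with plant 1 and with RNA genes. The narrowest class was 464 times the widest in plant 1 and 145, 169 and 164 times in plants 2 to 4. Without RNA genes, a choice made after seeing the data, the narrowest class had 1043, 88.4, 106 and 89.6 CPM per kb, and the ratio of widest to narrowest was 0.00460 to 0.0728 over plants, against 0.00215 to 0.00690 with them, with the same direction in each plant.

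**Figure D3:**
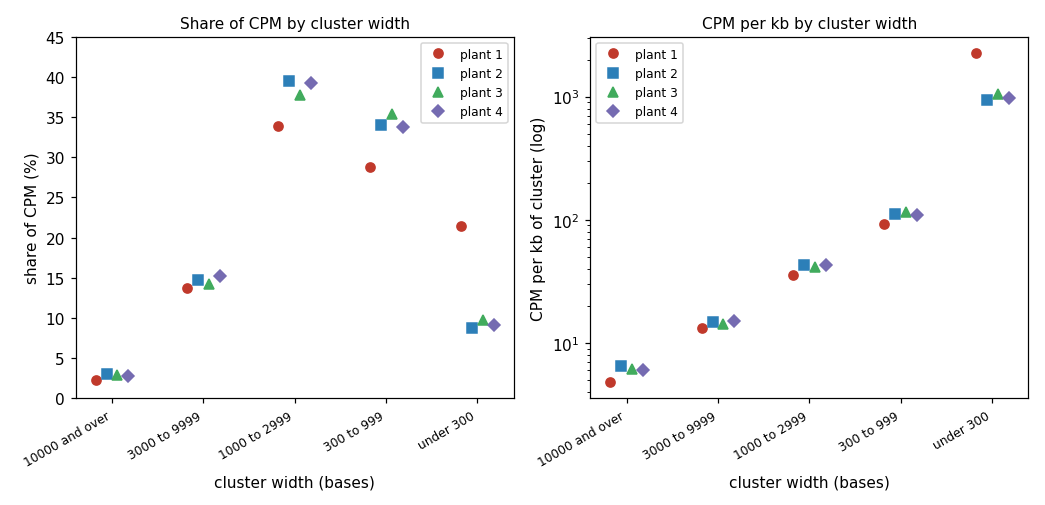
Share of CPM (%, left) and CPM per kb of cluster (log axis, right) in 5 classes of cluster width, 1 point per wild-type plant. CPM per kb is lowest in clusters of 10000 bases and over and highest under 300 bases in each plant, and plant 1 lies apart under 300 bases.

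Wide clusters were mostly gene-poor and narrow ones mostly not: 80.5% of the widest class and 8.89% of the narrowest lay in gene-poor bins. RNA genes gave 7.51% of the CPM of the widest class and 80.9% of that of the narrowest. The widest cluster, Cluster_4914 (chr2:3303700-3357598, 53899 bases), had 220, 244, 343 and 288 CPM, and 98.5% of its 24-base words also occur in the mitochondrial genome. It lies among 23 such clusters at chr2:3238447-3502745, the known insertion of mitochondrial DNA, which together had 1325 ± 164 CPM. Reads of mitochondrial RNA and of this insertion cannot be told apart here. The next widest, Cluster_11357, Cluster_8775, Cluster_14802 and Cluster_5438, lay at pseudogenes of gene-poor bins with 106 ± 16.8, 106 ± 20.1, 68.2 ± 9.40 and 192 ± 23.8 CPM.

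The narrowest clusters of at least 10 CPM were the length of a single sRNA, and their sequences are shown on the plus strand, since strand is not part of the tables. Cluster_5929 is coding sequence of AT2G19060, Cluster_7190 lies in a noncoding RNA gene, and Cluster_15869 is intergenic. Cluster_5929 had 72.5, 23.3, 16.7 and 24.3 CPM, Cluster_7190 had 135 ± 35.2 CPM and Cluster_15869 had 11.4 ± 1.44 CPM.
Cluster_5929: tagaggtcctaccgggaggt
Cluster_7190: tgatgcgacctggtcggatggt
Cluster_15869: atttgagaaaagcatatgaag

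The other 2 of the narrowest varied more between plants. Cluster_15761, 24 bases, had 4.57, 6.35, 34.1 and 6.45 CPM and was high in plant 3. Cluster_6322, 25 bases in an intron of AT2G25260, had 77.2, 5.72, 4.96 and 82.8 CPM and was high in plants 1 and 4.

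Few clusters held most of the CPM. The 15 highest by mean held 28.0, 24.3, 24.5 and 27.6%, and lay at 6 tRNA, 5 miRNA and 2 *TAS* clusters, Cluster_9262 and Cluster_15512. The rest of the 15 not yet given were tRNA clusters: Cluster_4376 (threonine) had 20869 ± 3353 CPM, Cluster_6600 (glycine) 16967 ± 6799, Cluster_4074 (arginine) 12899.6 ± 5873 and Cluster_4378 (threonine) 10398 ± 1736. The number of clusters that held 50% of CPM was 39, 179, 159 and 125 in plants 1 to 4, and 3013, 3718, 3655 and 3642 clusters held 90%.

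**Figure D4:**
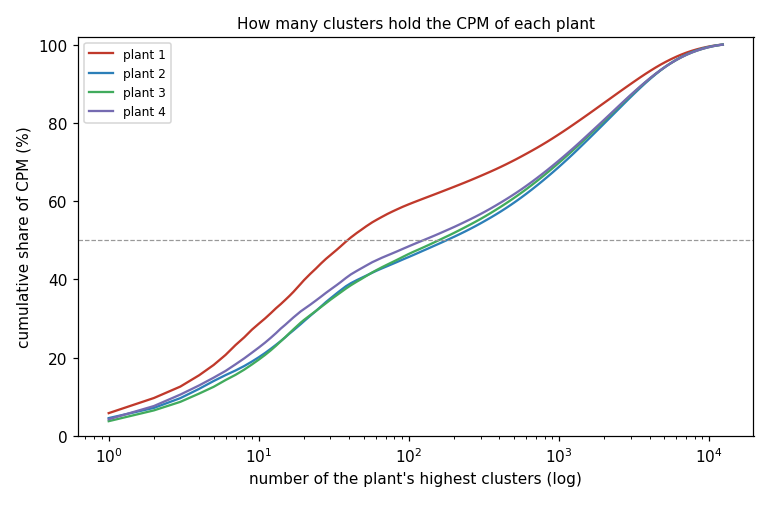
Cumulative share of CPM (%) against the number of each plant's highest clusters (log axis), 1 line per wild-type plant, with a dashed line at 50%. Plant 1 reaches 50% with 39 clusters, and the others with 125 to 179.

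Between plants the landscape was much alike in rank and less so in level. Over the 12306 clusters, Spearman correlations were 0.956 to 0.959 among plants 2 to 4 and 0.915 to 0.924 with plant 1. Over the 121 bins they were 0.979 to 0.984 and 0.890 to 0.913. These describe clusters and bins of the same libraries. The highest plant was a median of 1.80 times the lowest, and 63.1% of clusters stayed within 2-fold. Among plants 2 to 4 the median was 1.38 times, and 84.7% stayed within 2-fold. Leaving out any plant can only lower this ratio or keep it, so the change is partly fixed in advance. As a check for a library deposited in duplicate, chi-square per degree of freedom over clusters was 22.3 to 41.5 among plants 2 to 4 and 155 to 200 with plant 1.

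The biological coefficient of variation, the spread between plants beyond counting error, was 0.341 over all clusters and 0.239 without plant 1. It was 0.202 for clusters of 10000 bases and over and 0.532 for those under 300 bases. By annotation it was 0.575 for tRNA, 0.358 for miRNA, 0.323 for pseudogenes and 0.220 for the 4 *TAS* clusters. Gene-poor and gene-rich clusters had 0.340 and 0.342. The median absolute log2 deviation of a plant from the others was 0.53, 0.32, 0.29 and 0.25 in gene-poor clusters and 0.53, 0.33, 0.28 and 0.24 in gene-rich clusters (3 of 4 plants higher in gene-poor, mean difference 0.0058 ± 0.0167, exact sign-flip permutation test, p = 0.375).

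The steadiest clusters were of several kinds. Cluster_4926, in the mitochondrial insertion, had 166, 164, 166 and 163 CPM. Cluster_1259, at *MIR404*, had 22.0, 22.9, 23.2 and 22.5 CPM. Cluster_5603, 10284 bases at pseudogenes, had 258 ± 5.82 CPM, Cluster_10788, intergenic, had 55.0 ± 1.37 CPM, and Cluster_613, at AT1G18050 and AT1G18060, had 27.4 ± 0.715 CPM. They were chosen as the smallest spreads, so their steadiness is a description, and it holds for this scaling. With TMM factors, Cluster_4926 ranged from 148 to 212 CPM over plants, Cluster_1259 from 20.7 to 28.1 and Cluster_5603 from 235 to 331.

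Plant 1 carried most of the single-plant extremes. In it, 103 clusters were at least 4 times above each other plant, and these held 19.5% of its CPM, against 0.972, 1.84 and 1.20% in plants 2 to 4. The same rule gave 3, 8 and 1 clusters for plants 2, 3 and 4. With TMM scaling it gave 154 clusters for plant 1 and 3, 7 and 1 for the others. Clusters at least 4 times below each other plant numbered 92, 15, 8 and 6 in plants 1 to 4, and 53, 19, 12 and 9 with TMM scaling. The 92 of plant 1 held 0.0590% of its CPM, against 0.567, 0.601 and 0.544% in plants 2 to 4. Of the 103 clusters, 51 lay at protein-coding genes (49.5%, against 36.7% of all described clusters), 13 at tRNA genes (12.6%, against 1.92%), 14 at pseudogenes (13.6%, against 18.2%) and 9 at other noncoding RNAs. A further 14 were intergenic (13.6%, against 33.3%) and 2 lay at snRNA or snoRNA genes (1.94%, against 1.09%). None was in the miRNA or *TAS* class, which hold 1.67 and 0.0325% of all clusters. These clusters were chosen for being high in plant 1. Without them, the share of CPM under 300 bases was 10.2% in plant 1 and 8.08 to 8.31% in the others, and the gene-poor share 11.7% and 11.8 to 12.2%. Plant 1 still had the highest tRNA share, 25.6% against 21.0 to 22.2%, and the lowest *TAS* share, 4.90% against 5.96 to 6.42%. It still had the fewest clusters holding 50% of CPM, 80 against 128 to 181. Its miRNA share was then 16.9%, against 14.3 to 17.3%, and no longer the lowest. Its share at protein-coding genes turned from the highest to the lowest, 17.5% against 18.0 to 18.7%.

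**Figure D5:**
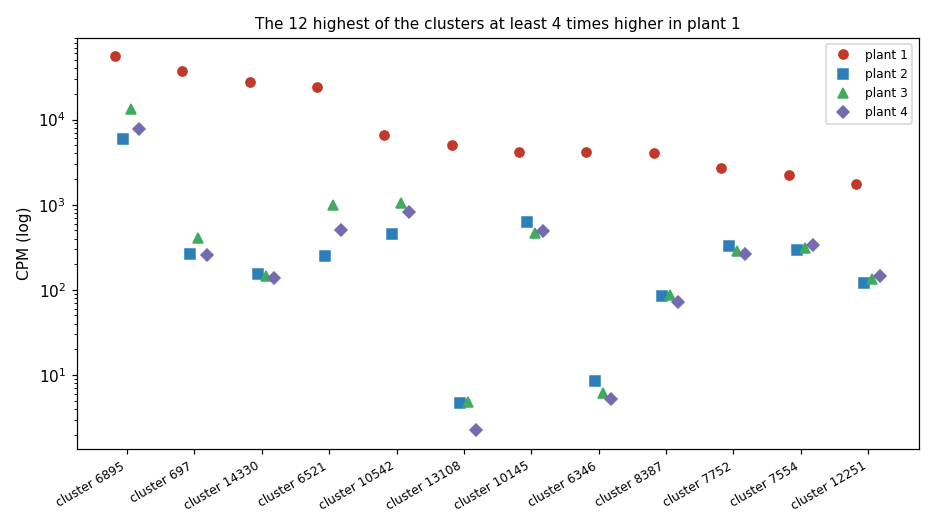
CPM (log axis) in the 4 wild-type plants of the 12 highest clusters among those at least 4 times higher in plant 1. Cluster_697 has 36671 CPM in plant 1 and 257 to 406 CPM in the others.

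The 103 clusters had a median width of 1495 bases, against 1250 bases for all described clusters. The 16 under 300 bases held 67.9% of the CPM of the 103 clusters in plant 1. Clusters under 300 bases were 3.66% of all described clusters. Cluster_697 (chr1:6926614-6926896, 283 bases), over the end of *HVA22H*, had 36671 CPM in plant 1 and 261, 406 and 257 CPM in plants 2 to 4. Its bases were 45.2% non-coding exon and 54.8% outside genes. Cluster_14330 (chr5:8804272-8806223), inside the phospholipase D gene *PLDALPHA3* and 61.1% coding, had 27423 CPM in plant 1 and 155, 144 and 137 CPM in the others. Cluster_13108 (chr4:15284431-15287398), at AT4G31530 and *EXO70G1*, an exocyst subunit gene, had 5024 CPM in plant 1 and 4.70, 4.81 and 2.25 CPM in the others.

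A pair of these clusters was intergenic and short enough to show whole, on the plus strand. Cluster_6521 (chr2:12333700-12333907), 112 bases from AT2G28755, had 24085 CPM in plant 1 and 252, 998 and 498 CPM in the others. Cluster_6346 (chr2:10935264-10935495), 660 bases from *MOT1*, had 4148 CPM in plant 1 and 8.52, 6.17 and 5.25 CPM in the others.
Cluster_6521: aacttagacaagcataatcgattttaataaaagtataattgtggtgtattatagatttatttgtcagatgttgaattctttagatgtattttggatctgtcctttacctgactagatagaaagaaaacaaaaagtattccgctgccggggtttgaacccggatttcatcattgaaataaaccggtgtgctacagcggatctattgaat
Cluster_6346: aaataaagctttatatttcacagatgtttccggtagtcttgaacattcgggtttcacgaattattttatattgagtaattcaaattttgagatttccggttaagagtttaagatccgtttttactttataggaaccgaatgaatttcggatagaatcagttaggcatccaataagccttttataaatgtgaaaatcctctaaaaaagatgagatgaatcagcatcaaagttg

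Large differences were not confined to plant 1. Cluster_265, at the tRNA gene AT1G08240, had 8.37, 11.1, 2037 and 10.2 CPM and was high in plant 3. Cluster_290, at the tRNA gene AT1G09110, had 238, 453, 1.65 and 1.95 CPM and was high in plants 1 and 2. What set these levels was not tested.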

How the data were processed

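Small RNA was sequenced from 4 single wild-type plants, labelled as rosette leaves. Libraries were made with a TruSeq small RNA kit and read on a BGISEQ-500. Per its methods, ShortStack aligned the libraries separately to TAIR10, and the authors merged the alignments with SAMtools. The deposited values were whole-number counts per cluster, unscaled. The definition of a cluster, the counting rule and any selection of read length are not given in the sources used here for the count tables. The study speaks of 24-nt sRNA in its own screen of clusters, and no limit of the tables to that length is stated. Clusters 20, 21 and 22 bases wide held counts, and genes of 21-base miRNAs were among the highest clusters. The tables therefore do not look limited to 24 bases, although read lengths were not seen. Read length and strand are not in the tables, so 24-base siRNA could not be set apart. ShortStack places reads that match several sites, which affects counts at repeated sequences and at near-identical RNA genes.

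Counts were scaled per 1000000 of the column total without 2 rDNA clusters, after a filter of at least 10 counts in every wild-type library. Genes were those of the RefSeq annotation. The classes were, in order, tRNA, snRNA or snoRNA, miRNA, TAS, other noncoding RNA, pseudogene or transposon gene, protein-coding and intergenic. TAS1B lay in a cluster that an earlier class took. Repeated sequence was measured as the percent of 24-base words with over 1 copy. Dispersion came from edgeR 4.0.16 (R 4.3.3) with an intercept only, tested on simulated data. Other values were computed with Python 3.11.15, scipy 1.17.1 and pandas 2.3.3. There were 4 sign-flip comparisons over the plants, with Benjamini-Hochberg adjusted p of 0.167, 0.167, 0.167 and 0.375. The SDs measure the spread between these 4 plants. The p-values rest on within-plant differences, and agreement in all 4 plants gives 0.125 whatever the spread. The text names the 15 highest clusters, the 5 highest outside RNA genes in gene-poor and in gene-rich bins, the 5 widest and 5 narrowest, the 3 highest and lowest bins, the listed miRNA, TAS and RPF genes, and the 5 largest and smallest spreads over plants, the last and the narrowest at a mean of at least 10 CPM. The members and lists were chosen with earlier results of these data known. Shares were taken over the described clusters, so scaling does not change them, but it does change ratios between plants.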

Additional observations from a re-analysis of the deposited data

Results flagged for a closer look

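In 20 of 104 reported values, 1 plant was far from the other 3, judged by the gap to its nearest neighbour as a part of the whole range. Chance gives this in about 1 in 20 independent groups, but all of these values come from the same 4 libraries, and 58 of them are single clusters named by level or spread. Of the 13 clusters found, Cluster_13108, Cluster_6346, Cluster_265 and Cluster_14330 were named for the largest spread, and Cluster_697 and Cluster_6521 are among the highest through plant 1, so that rate does not apply to them. The other 7 values were among 46 of the whole landscape, several of which share clusters. Plant 1 was the distant plant in 16 of them, plant 3 in 3 and plant 4 in 1.

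For the whole landscape, the ratio of gap to range was 0.892 for the percent of counts outside the described clusters (5.08% in plant 1, 2.43 to 2.71% in the others). It was 0.870 for the gene-poor share, 0.870 for the gene-poor density and 0.867 for the density ratio, all lowest in plant 1. With TMM factors the gene-poor density was no longer lowest in plant 1. The ratio of gap to range was 0.923 for the share and 0.920 for the density of clusters under 300 bases, and 0.865 for the share at protein-coding genes, all highest in plant 1. Without the clusters high in plant 1, its share at protein-coding genes was the lowest, 17.5% against 18.0 to 18.7%.

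Among single clusters high in plant 1, the ratio was 0.854 for Cluster_6895, 0.996 for Cluster_697, 0.999 for Cluster_14330, 0.969 for Cluster_6521, 0.864 for Cluster_5929, 0.999 for Cluster_13108 and 0.999 for Cluster_6346. Plant 1 was low at Cluster_6945 (*TAS1C*, 0.915) and at Cluster_12806 (*MIR845a*, 0.858). Plant 3 was high at Cluster_4378 (0.909), Cluster_15761 (0.937) and Cluster_265 (0.999), and plant 4 at Cluster_615 (*MIR159b*, 0.929). These ratios were computed with the column total. With TMM factors Cluster_4378 ranged from 8485 to 12433 CPM, Cluster_615 from 9375 to 13932 and Cluster_6945 from 10066 to 10749. At none of these did a single plant then stand far from the rest.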

How the results depend on the processing

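No paired analysis was possible because only wild-type libraries were used and the memory libraries entered no comparison. Shares, density ratios within a plant and the number of clusters holding 50% of CPM do not depend on scaling. Comparisons between plants do: the variation ratio of gene-poor to gene-rich bins was 1.05 with the whole column total and 1.06 with TMM factors, instead of 1.03. The mean CPM of all 42 named clusters was lower with the whole column total, by more than its SD in 28, and 1 moved by more than its SD with TMM factors.

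The density ratio of widest to narrowest clusters was 0.00993 with no filter and 0.00243 at 50 counts, instead of 0.00526. With at least 50 counts in every library, 7256 clusters passed, and the variation ratio of gene-poor to gene-rich bins was 0.971. The coefficient of variation was 0.588 with no filter, and 0.239 to 0.375 leaving out each plant in turn. The variation ratio was 0.999 to 1.08 leaving out each plant. With the 25% of bins of fewest genes as gene-poor, it was 0.983, the gene-poor share was 26.2% and the density ratio 1.11. Without the 10 highest clusters the gene-poor share was 12.7%, and 375 clusters held 50% of CPM on average, instead of 126. With width limits at 250, 500, 2000 and 5000 bases, the classes from the next to narrowest to the widest held 14.0, 53.5, 12.8 and 11.8%. With a class set only where it covered 50% of the cluster, the shares were 0.402% tRNA, 0.0418% snRNA or snoRNA, 3.12% miRNA, 2.02% other noncoding RNA, 6.18% pseudogene, 22.3% protein-coding and 60.4% intergenic.

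Alternatives chosen after seeing the data were these. Without RNA genes the gene-poor share was 19.2% and the density ratio 1.18. Without Cluster_9262 the gene-poor share was 10.2%. Without the clusters high in plant 1, the class of 3000 to 9999 bases held 15.4%. What causes these shifts was not tested. Intervals and floors cover counting error only, and no exact test over 4 plants can go below 0.125.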
